A study of Homo sapiens with 2 samples.

Results

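Lysophosphatidic acid (LPA) and sphingosine 1-phosphate (S1P) are lipid mediators that act on cells through G protein-coupled receptors. The genes studied were the LPA receptor genes LPAR1 to LPAR6, the S1P receptor genes S1PR1, S1PR2 and S1PR3, and ENPP2, which encodes autotaxin, chosen by name with their array differences already known. These are 10 genes, of which 8 were measured among the 18417 genes of the arrays. LPAR5 and S1PR3 had no sequence that carries their symbol alone in the platform's annotation. The arrays compared HT1080 cells, a human fibrosarcoma line, after 24 h in coated wells. The coating was bovine serum albumin (BSA) or rLCC111 at 1 µg per well. The line was cultured in serum-supplemented DMEM, and the medium of the 24 h on coated wells is not given separately. rLCC111 is a recombinant trimer of truncated mouse laminin α1-, β1- and γ1-chains, which hold the coiled-coil parts and some laminin EGF-like modules. It was purified from the medium of a human embryonic kidney line. Each coating had a single GeneChip Human Gene 1.0 ST array, and the labels give no genetic change to the HT1080 cells.

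Autotaxin is a secreted lysophospholipase D that makes LPA from lysophosphatidylcholine outside the cell. LPAR1, LPAR2 and LPAR3 and the S1P receptors belong to the EDG family of receptors, whereas LPAR4, LPAR5 and LPAR6 are closer to the purinergic P2Y receptors. LPAR1 and S1PR2 couple to Gi, Gq and G12/13 proteins, the last of which promote actomyosin contraction, and S1PR1 couples to Gi and favours Rac and cell spreading. LPA and S1P are carried by serum and albumin, and fibroblasts and fibrosarcoma cells are known to respond to them with motility and contraction.

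Values were RMA levels on the log2 scale, and a difference was the level on rLCC111 minus that on BSA. Levels of different genes come from different probes and were not ranked against each other. The median difference of all genes was 0.00, with an SD across genes of 0.20. As a guide to dim signals, a limit of silent genes was set at 6.62, below which lay 95% of 379 olfactory, taste, trace amine and vomeronasal receptor genes by their mean level. The differences of these 379 genes had an SD of 0.18, a lowest value of -0.31 and a highest value of 1.53. At least 2-fold higher on rLCC111 were 2 of them. The mesenchymal markers VIM, FN1, SPARC, CDH2 and ZEB1 were above the limit on both arrays, at 10.51 to 13.42, and S100A4 was below it. The epithelial markers EPCAM and CDH1, all 3 measured blood markers and the endothelial markers PECAM1, CDH5 and VWF were below it, while KRT19, at 7.30 on BSA, and the endothelial gene TIE1, at 10.55, were above it. With 1 array per coating no difference has a replicate check and none could be tested. Because the arrays were made from bulk RNA, fewer cells with a transcript and less of it per cell cannot be told apart.

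LPAR1 and S1PR1 were the receptor genes lower by more than 0.5 on rLCC111, and the upstream sequences of both are shown because the largest differences of the set are theirs. Each is the 250 bases before an annotated start in RefSeq on GRCh38.p14, written 5′ to 3′ on the strand of the gene. LPAR1 has 6 such windows in the table and the one farthest upstream is given, at chr9:111038999-111039248 on the minus strand. The S1PR1 window is its single one, at chr1:101236769-101237018 on the plus strand. Capitals mark matches to the motifs searched on both strands, which were the GC box spelled GGGCGG, the CCAAT box, the TATA box as TATAAA, the AP-1 motif TGANTCA, the cyclic AMP response element TGACGTCA, the TEAD motif GGAATG and the CArG box.
LPAR1: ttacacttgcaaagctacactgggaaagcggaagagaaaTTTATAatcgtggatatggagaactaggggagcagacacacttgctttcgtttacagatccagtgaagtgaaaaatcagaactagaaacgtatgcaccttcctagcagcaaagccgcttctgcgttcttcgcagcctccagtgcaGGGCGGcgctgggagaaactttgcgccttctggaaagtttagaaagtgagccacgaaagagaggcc
S1PR1: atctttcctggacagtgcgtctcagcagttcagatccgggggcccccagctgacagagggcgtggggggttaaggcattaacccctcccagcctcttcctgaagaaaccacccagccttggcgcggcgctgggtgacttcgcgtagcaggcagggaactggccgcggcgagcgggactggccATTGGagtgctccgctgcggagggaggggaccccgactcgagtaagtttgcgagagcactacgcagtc

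The LPAR1 window held 1 GC box and 1 reverse TATAAA, motifs found in 42.6% and 10.7% of the 35116 windows of all genes. The GC box starts at -66 and the reverse TATAAA at -211, counted in bases from the start. The S1PR1 window held 1 reverse CCAAT, present in 32.0% of all windows, and none of the other motifs. Neither window held a match to the AP-1, cyclic AMP, TEAD or CArG motifs, found in 6.57%, 1.65%, 11.9% and 1.16% of all windows. G and C made up 48.4% of the LPAR1 window and 64.4% of that of S1PR1, against a median of 58.0% over all windows. The array does not tell from which start LPAR1 was transcribed.

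Among the LPA receptors of the EDG family, LPAR1 was at least 2-fold lower on rLCC111, and LPAR2 and LPAR3 differed by less than 0.5. LPAR1, a receptor widely expressed in fibroblasts, gave 7.86 on BSA against 6.61 on rLCC111, which is a difference of -1.25 or 0.420-fold. Its BSA level was above the limit of silent genes and its rLCC111 level was not, lying just under it. That limit is a guide, so the fold is read as a bound and not as an exact size. The counts and distances drawn from this fold below rest on that dim level. LPAR2, which also couples to Gi, Gq and G12/13 proteins and binds PDZ proteins at its tail, gave 7.10 on BSA against 7.38 on rLCC111, 1.22-fold. LPAR3, which couples to Gi and Gq, was at 8.71 and 8.68, a fold of 0.977. Both LPAR2 and LPAR3 were above the limit on both arrays. LPAR1 was 1 of 8 measured genes at least 2-fold lower, against 0.0869% of all 18417 genes, and none of the 8 was at least 2-fold higher, against 0.239%. In all, 10 genes of the arrays, LPAR1 included, had a difference as low as that of LPAR1 or lower.

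**Figure D1:**
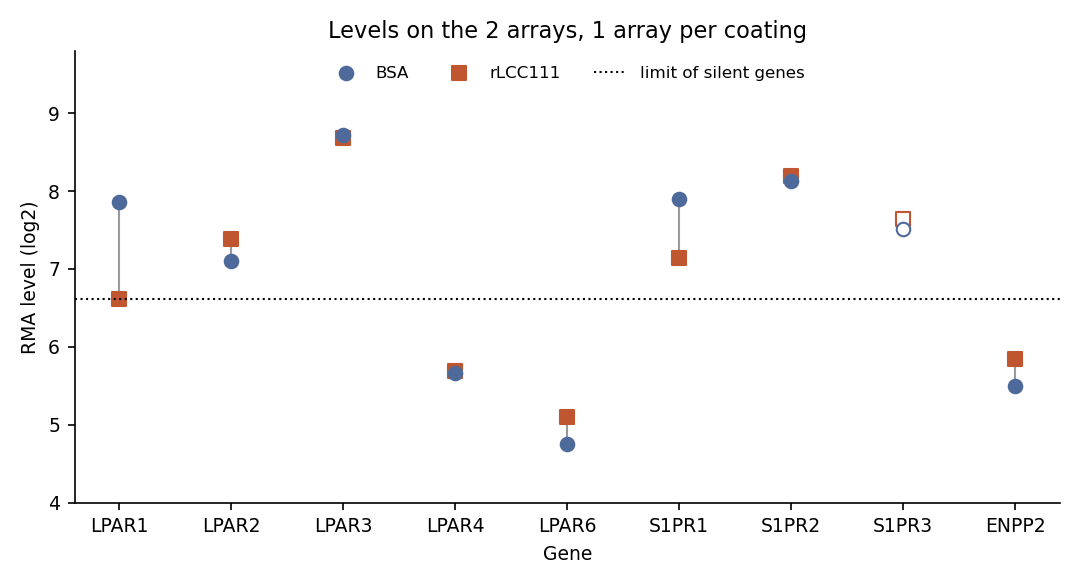
RMA level (vertical axis, log2) of 8 measured genes and S1PR3 on the BSA array (circles) and the rLCC111 array (squares), with 1 array per coating and the limit of silent genes, 6.62, as a dotted line. LPAR1 and S1PR1 are the genes whose circle lies far above the square; the open symbols of S1PR3 come from a sequence that carries 2 symbols.

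The LPA receptors of the P2Y type gave little signal. LPAR4, which couples to several G proteins, Gs among them, gave 5.67 on BSA against 5.70 on rLCC111, 1.02-fold. LPAR6, a G12/13-coupled receptor needed for hair growth, was at 4.76 and 5.10, a fold of 1.27. Both genes were below the limit of silent genes on both arrays. LPAR6 lies inside RB1, the gene of the retinoblastoma protein, in GRCh38.p14, and RB1 gave 11.99 on BSA against 11.91 on rLCC111, which is a difference of -0.07. LPAR5, the remaining receptor of this type, has no value here.

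Of the S1P receptors, S1PR1 was the one with a lower level on rLCC111. It gave 7.90 on BSA against 7.14 on rLCC111, which is a difference of -0.76 or 0.593-fold, short of 2-fold. Its level stayed above the limit of silent genes on both arrays. S1PR2, which restrains migration in many cells, was at 8.13 and 8.19, a fold of 1.04. S1PR3, which couples to Gi, Gq and G12/13 proteins, is represented by a sequence annotated with S1PR3 and C9orf47, and the RefSeq table now lists the second symbol as a synonym of the first. That sequence gave 7.51 on BSA against 7.64 on rLCC111, 1.09-fold. For S1PR2 and S1PR3 the levels thus lay above the limit on both arrays and close to each other. LPAR1 and S1PR1 were the 2 of 8 measured genes lower by at least 0.5, against 1% of all genes. There were 47 genes, 0.255% of all, with a difference as low as that of S1PR1 or lower.

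ENPP2 gave 5.50 on BSA against 5.84 on rLCC111, 1.26-fold. Both levels were below the limit of silent genes, so the size of this difference rests on a dim signal. LPAR2, LPAR6 and ENPP2 were the 3 of 8 measured genes higher by at least 0.25, against 7.49% of all genes, and none reached 0.5, against 1.68%. LPAR3, LPAR4 and S1PR2 differed by less than 0.1. The median difference of the 8 genes was 0.04 beside that of 0.00 for all genes. Within the set, 4 genes were above the limit on both arrays, 3 were below it on both, and LPAR1 was above it on BSA and just under it on rLCC111. The brighter array was thus above the limit for 5 of the 8 genes, beside 12700 of all 18417 genes, so this split is near the background.

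**Figure D2:**
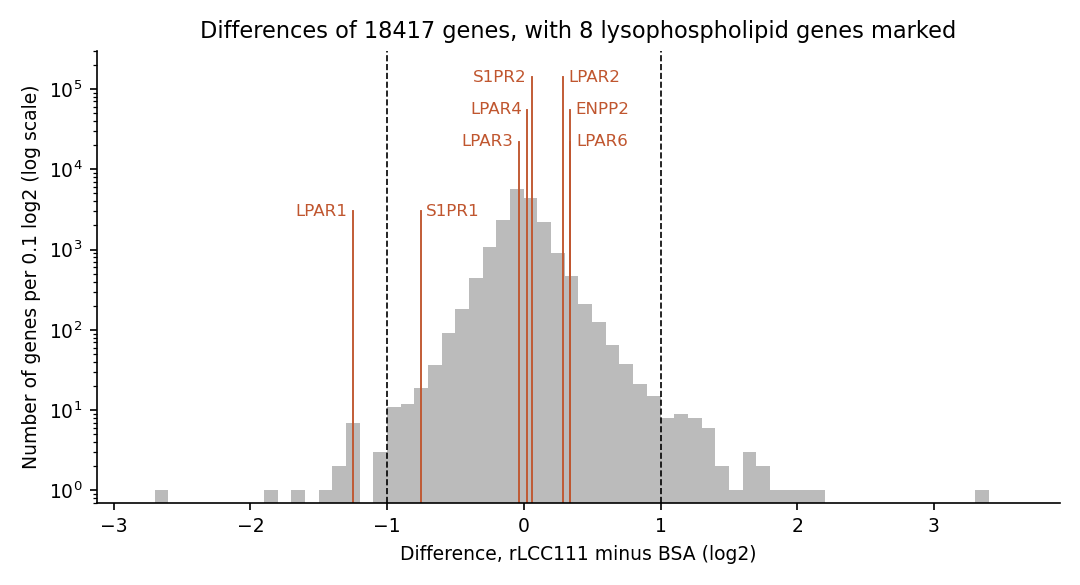
Number of genes (vertical axis, log scale) in steps of 0.1 of the log2 difference, rLCC111 minus BSA (horizontal axis), for all 18417 genes in grey, with red lines at the 8 measured genes and dashed lines at 2-fold. LPAR1, at -1.25, lies beyond the lower dashed line, S1PR1, at -0.76, lies inside it, and the other 6 lie between -0.03 and 0.34.

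Other receptors of lipids and of serum ligands were on 3 lists with 54 measured genes, which were written with earlier results of these arrays known. Their differences ran from -0.30 to 0.19, with a median of 0.00, and none was 0.5 or larger in size, against 1% of all genes lower and 1.68% higher by that much, so a count of 0 among 54 genes is near the background. Among 10 measured receptors of other lysophospholipids, protons and related ligands, the S1P receptors S1PR4 and S1PR5 had folds of 1.14 and 1.10 and the proton-sensing receptor GPR4 1.09, and the median was 0.03. S1PR4 was at 6.57 on BSA and 6.75 on rLCC111, on either side of the limit. Among 24 receptors of prostaglandins, leukotrienes, cannabinoids and fatty acids, the prostaglandin E receptor gene PTGER4 had a fold of 1.11 and the bile acid receptor gene GPBAR1 0.936. The prostaglandin D receptor gene PTGDR2 had a fold of 1.06 and the prostacyclin receptor gene PTGIR 0.945. Among 20 receptors of thrombin, kinins, nucleotides and other ligands, the kinin receptor gene BDKRB1 had the lowest fold, 0.815, followed by the ADP receptor gene P2RY1 with 0.850. The adhesion receptor genes ADGRE5 and ADGRL2 had folds of 0.864 and 1.14. The difference between the 54 and the LPA and S1P receptors was not tested.

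Of 10 measured genes on the list of LPA production none was at least 2-fold different, which is near the background of 0.0869% lower and 0.239% higher. The median difference was 0.09. PLD1, a phospholipase D that makes phosphatidic acid, gave 7.88 on BSA against 8.38 on rLCC111, 1.41-fold. Its relative PLD2 had a fold of 1.10, the phospholipase A2 gene PLA2G6 1.07 and AGK, a mitochondrial kinase of acylglycerols, 0.889. The phospholipase A2 gene PLA2G4A had a fold of 1.39 and the phosphodiesterase gene GDPD3 0.740, both with levels below the limit of silent genes on both arrays. LIPH, a phospholipase A1 that makes LPA from phosphatidic acid, and PLA1A, a phospholipase A1 that acts on phosphatidylserine, were below it too. Among 5 measured relatives of autotaxin, ENPP1, which makes pyrophosphate from extracellular ATP, gave 10.88 on BSA against 11.63 on rLCC111, 1.69-fold. ENPP4 had equal levels of 7.08 on both arrays, and 7.19% of all genes had equal levels in this way. The median of this list was 0.04.

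Genes of LPA clearance included a higher one, PLPP3. This gene encodes a phosphatase at the cell surface that dephosphorylates LPA and S1P, and it gave 9.05 on BSA against 9.71 on rLCC111, which is a difference of 0.66 or 1.58-fold. Of the other phospholipid phosphatases, PLPP4 had a fold of 1.28, PLPP1 1.15 and PLPP2 1.09. AGPAT4, which acylates LPA to phosphatidic acid, had a fold of 1.38, and PLPPR2, a related membrane protein, 0.822. Of 15 measured genes on this list, which also holds relatives of PLPPR2, 9 had a difference above 0 and 5 below 0. The median was 0.06 beside 0.00 for all genes. PLPP3 was the 1 of 15 higher by at least 0.5, against 1.68% of all genes. None was 2-fold different, against 0.0869% of all genes lower and 0.239% higher, so that count is near the background. For S1P, SPHK1, the kinase that makes it, was at 10.17 and 10.28, a fold of 1.08. SGPL1, the lyase that cleaves S1P, had a fold of 1.12, the S1P phosphatase gene SGPP1 0.866 and the ceramidase gene ACER3 0.935. The transporter gene SPNS2, which exports S1P, had a difference of -0.02, and the median of the 12 measured genes of S1P handling was 0.03.

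**Figure D3:**
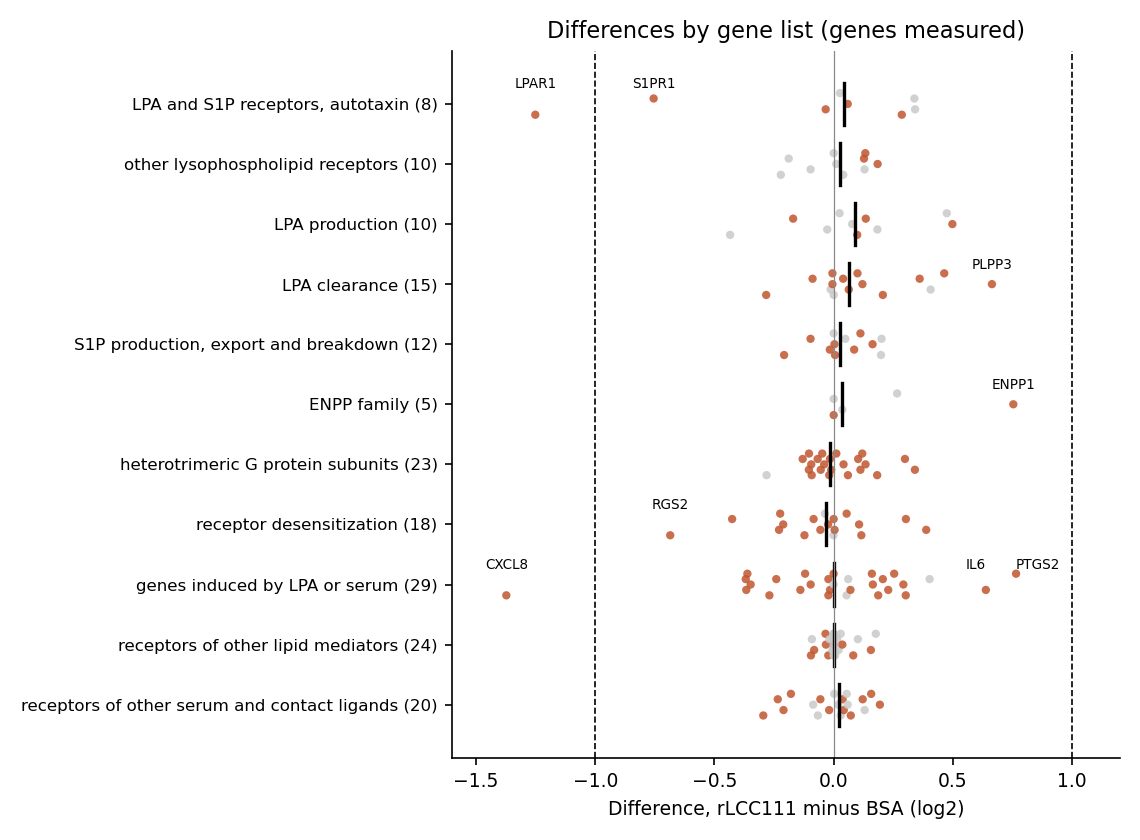
Log2 difference, rLCC111 minus BSA (horizontal axis), of each measured gene of 11 lists, with the number of genes measured in parentheses, black bars at list medians and dashed lines at 2-fold. Red points had the brighter array above the limit of silent genes and grey points did not; LPAR1 and CXCL8 are the points beyond a dashed line.

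Downstream of the receptors, genes of G proteins differed little. Of 23 measured G protein subunits none differed by 0.5, against 1% of all genes lower and 1.68% higher by that much. A count of 0 among 23 genes is near that background. The median was -0.02, with 10 of the 23 above 0 and 13 below 0, and the lowest difference was -0.28. GNG2, GNAZ and GNAO1 had folds of 1.27, 1.23 and 1.14. Of these, GNAO1 was at 6.53 on BSA and 6.71 on rLCC111, on either side of the limit of silent genes. GNA12 and GNA13, the α-subunits of the G12/13 class, had differences of 0.11 and 0.13. Among 18 measured genes of receptor desensitization and G protein shut-off, RGS2, which limits Gq signalling, gave 7.29 on BSA against 6.61 on rLCC111, 0.622-fold. Its rLCC111 level lay just under the limit of silent genes, as that of LPAR1 did, so this fold is read as a bound too. RGS20 had a fold of 0.744, RGS17 1.23 and ARRB1, which encodes β-arrestin 1, 1.31, and the median was -0.03.

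Genes that LPA or serum is known to induce differed in both directions. Of 29 measured, 14 lay above 0, 14 lay below 0, and their median was 0.00, as was that of all genes. The chemokine gene CXCL8 gave 9.74 on BSA against 8.36 on rLCC111, 0.386-fold. It was the 1 of 29 that was 2-fold different, against 0.0869% of all genes at least 2-fold lower and 0.239% higher. PTGS2, the inducible cyclooxygenase, was at 7.00 and 7.77, a fold of 1.70. The cytokine gene IL6 was at 6.43, below the limit of silent genes, and 7.07, a fold of 1.56. HBEGF, a ligand of the EGF receptor, gave 12.15 on BSA against 11.78 on rLCC111, 0.774-fold. The early response genes EGR1 and FOS had differences of 0.25 and -0.02, and CCN1 and CCN2, which encode matricellular proteins, -0.14 and 0.16. Other genes of the list, not named here, differed by more than these in both directions. CXCL8, PTGS2 and IL6 were the genes of the list that differed by 0.5 or more. These were 1 of 29 lower and 2 of 29 higher, against 1% and 1.68% of all genes. The list was chosen with CXCL8 known to be lower and is no independent evidence.

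Genes with a difference closest to that of LPAR1, among the 12700 genes with the brighter array above the limit, were TMEM71, GABRA6, CCBE1 and LY6K. The measure was the distance between differences on the same 2 arrays, which was 0.01 for TMEM71, 0.03 for GABRA6 and 0.04 for CCBE1 and LY6K. CCBE1, a secreted protein of lymphatic growth, was at 9.15 on BSA and 7.93 on rLCC111, and LY6K at 10.25 and 9.05. TMEM71 and GABRA6 were below the limit on rLCC111.

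Other scalings of the arrays shifted the 8 genes by small amounts. The difference of LPAR1 lay between -1.33 and -1.25 over the deposited values, median centring, lowess and quantile normalization, and that of S1PR1 between -0.84 and -0.76. The differences of LPAR2, LPAR6 and ENPP2 stayed above 0.20, while LPAR4 and S1PR2 changed sign after quantile normalization, at -0.05 and -0.02.

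**Figure D4:**
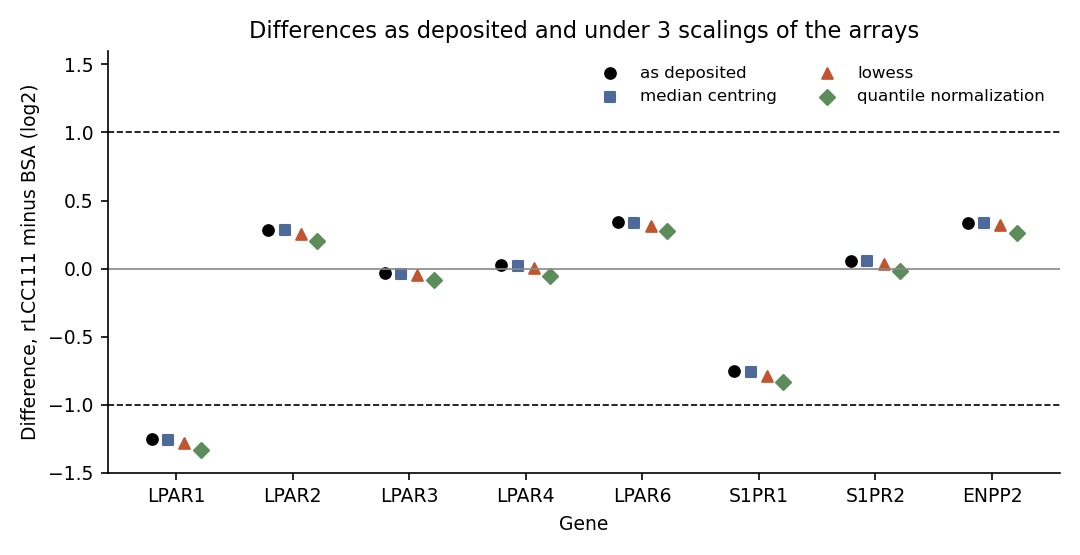
Log2 difference, rLCC111 minus BSA (vertical axis), of 8 genes with the deposited values and with median centring, lowess or quantile normalization applied, with dashed lines at 2-fold. All 4 points of LPAR1 lie below the lower dashed line and all 4 points of S1PR1 lie above it and below 0.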

How the data were processed

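Total RNA of HT1080 cells kept for 24 h on BSA or rLCC111 was hybridized to GeneChip Human Gene 1.0 ST arrays, 1 per coating. The authors processed the scans into log2 levels by RMA in Affymetrix Expression Console; the version, settings and genome build are not given in the sources used here. RMA subtracts background, scales arrays to each other and combines probes, so small differences depend on it. The deposited log2 levels of 33297 sequences were used as they stand, with array medians of 7.04 on BSA and 7.12 on rLCC111. The methods name limma, which needs replicates, so no p-value is given, and the number of arrays limits the precision.

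Of these sequences, 19460 had 1 symbol in the annotation of the platform, brought up to date with RefSeq of GRCh38.p14; 1754 with several symbols and 12083 without were left out, apart from that of S1PR3. Where a gene had several sequences, the brightest by mean level stood for it. The genes and lists were chosen with earlier results of these data known. Named are the 10 genes, cell type markers, measured genes that overlap them, the 4 differences nearest to that of LPAR1 and, in each list, genes at least 2-fold different and the 4 largest differences above the limit of silent genes; GNA12, LIPH, PLA1A, PLA2G4A, GDPD3, PLPP1, PLPP2, SPNS2, EGR1, FOS, CCN1 and CCN2 were added with their values known. Alternatives were median centring, lowess (span 0.2, 3 iterations), quantile normalization, 2 other choices of sequence per gene and other filters and limits. A further list of genes is not reported here. The scripts were tested on simulated data. Python 3.11.15 was used with numpy 2.4.6, pandas 2.3.3, statsmodels 0.14.6 and matplotlib 3.10.9.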

Additional observations from a re-analysis of the deposited data

How the results depend on the processing

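Under the alternatives, 159 values kept within the SD of the sensory receptor differences, or within 1.5 times for counts, and 5 did not. Part of the 159 was fixed in advance. The 2 other choices of sequence could not change the difference of any of the 8 measured genes, because each had 1 sequence. Median centring took the same amount from every difference. Keeping only genes with both arrays above the limit of silent genes left 0 of the LPA and S1P genes at least 2-fold lower, because LPAR1 on rLCC111, at 6.61, falls just under the limit of 6.62, and left 26 of 44 genes at least 2-fold higher. The median of the ENPP list became 0.38 with either filter, since 2 genes remained. With the 99th percentile as the limit, 7.58, the LPA and S1P genes above it on both arrays were 2 instead of 4. S1PR1 stayed above this limit on BSA but, at 7.14, fell below it on rLCC111, and LPAR2 was below it on both arrays. Counting receptor pseudogenes among the silent genes, chosen after seeing the data, lowered the limit to 6.61 and put LPAR1 above it on both arrays, which made 5. The planned 90th percentile limit, 6.10, also put LPAR1 above it on both arrays and made 5. With the mean of sequences, planned too, the number was 5 as well. Merging RefSeq synonyms, also chosen later, added S1PR3. Quantile normalization moved the median of all genes by -0.06. No paired analysis was possible because there is 1 array per coating, and for the same reason no array could be left out. A difference of one coating from the other cannot be told apart from a difference between 2 wells, extractions or arrays.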
